A study of Mus musculus with 9 samples.

Results

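Transporters that return filtered amino acids from the tubule lumen to the blood were followed across kidney cortex from diabetic mice with and without a herbal medicine, Tang-shen Formula (TSF), and from lean mice. The set was fixed by name and holds 10 genes, Slc6a19, Slc6a18, Slc3a1, Slc7a9, Slc3a2, Slc7a7, Slc7a8, Slc1a1, Slc36a2 and Slc43a2. All 10 had a probe set with a single gene symbol, each had only 1 such probe set, and all 10 were among the 17740 genes tested of 22180 genes measured.

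Expression was measured on 9 Affymetrix arrays, with 3 biological replicates in every group. The db/db+TSF mice were gavaged for 12 weeks with 2.4 g/kg of the formula per day, the db/db mice received saline, and the db/m mice are the lean controls, whose handling by gavage the labels do not state. All mice were 20-week-old males on the C57BLKS/J background, and the db allele, a loss-of-function mutation of the leptin receptor, is also carried as 1 copy by db/m mice. Per the labels each db/db arm held 9 mice, so the 3 arrays are a part of each arm, and the whole tissue was renal cortex rather than isolated tubules.

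Amino acids are freely filtered in the glomerulus and almost entirely recovered in the proximal tubule. Luminal carriers of the brush border take them into the cell, some driven by sodium and some by exchange, and basolateral exchangers and uniporters release them to the blood. Several carriers of the Slc7 family work only when joined to a heavy subunit, Slc3a1 on the luminal side and Slc3a2 on the basolateral side, and loss of Slc3a1 or Slc7a9 causes cystinuria, loss of Slc6a19 Hartnup disorder and loss of Slc7a7 lysinuric protein intolerance in humans.

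None of the 10 transporters passed an adjusted p of 0.05 in any comparison of the groups. Of all genes, 0% passed in db/db+TSF against db/db and 1.05% to 3.13% in the other comparisons. Slc1a1 and Slc3a1 were lower in all 6 arrays of both db/db groups than in all 3 db/m arrays, by small amounts that did not pass. These arrays did not overlap for 8.55% of all genes (4.23% higher and 4.32% lower). Around this set, a second luminal partner of Slc3a1, Slc7a13, was lower in db/db+TSF than in db/m, and the peptide transporter Slc15a1 and the neutral amino acid exchanger Slc1a5 were higher. Of these calls only that of Slc15a1 held in every fit with 1 array left out. In db/db+TSF replicate 2, genes of the last proximal tubule segment were low, and it was the lowest or highest of the 9 arrays for 7 of the 10 transporters. That array was the lowest for 15.6% of all genes and the highest for 10.9%. Other arrays were extreme too. Db/m replicate 1 was the lowest for 4 transporters, and db/m replicate 3 was the lowest for 17.9% of all genes and the highest for 20%.

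The promoters of 3 genes are shown to set beside their values below: Slc3a1 and Slc1a1, the genes lower in every array of both db/db groups than in db/m, and Slc7a9, the light subunit of Slc3a1, which was not. The sequences are from RefSeq, build GRCm38.p6, and hold the 250 bases before the annotated start, 5′ to 3′, at chr17:85028097-85028346 on the plus strand for Slc3a1, chr7:35448842-35449091 on the plus strand for the first of 2 starts of Slc7a9, and chr19:28834885-28835134 on the plus strand for Slc1a1. Capitals mark a match to CAAAGTCCA, a binding motif of HNF4A, a transcription factor of the proximal tubule.
Slc3a1: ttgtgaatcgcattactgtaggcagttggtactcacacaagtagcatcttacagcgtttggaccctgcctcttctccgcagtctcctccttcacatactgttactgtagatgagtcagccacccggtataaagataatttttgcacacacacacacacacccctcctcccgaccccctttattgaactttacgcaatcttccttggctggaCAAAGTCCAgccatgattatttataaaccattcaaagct
Slc7a9: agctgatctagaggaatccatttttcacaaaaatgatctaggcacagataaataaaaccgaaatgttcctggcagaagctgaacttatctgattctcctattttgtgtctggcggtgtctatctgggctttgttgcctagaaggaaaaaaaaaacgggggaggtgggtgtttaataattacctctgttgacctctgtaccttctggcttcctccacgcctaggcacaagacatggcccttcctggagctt
Slc1a1: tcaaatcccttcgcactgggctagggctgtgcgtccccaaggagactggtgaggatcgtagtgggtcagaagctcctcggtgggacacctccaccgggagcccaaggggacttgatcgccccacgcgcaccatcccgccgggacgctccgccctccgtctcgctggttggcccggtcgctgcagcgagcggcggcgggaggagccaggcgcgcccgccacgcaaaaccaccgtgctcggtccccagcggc
Both strands were searched for CAAAGTCCA, for the HNF1 core GTTAAT and for AGAACA, a core of the androgen and glucocorticoid receptor motif, and no matches overlapped. Slc3a1 held 1 CAAAGTCCA match 39 bases before its start, and windows with that match made up 0.384% of 32851 promoter windows of the same length. Neither GTTAAT, found in 6.43% of windows, nor AGAACA, found in 16.1%, was in these 3 windows. A promoter was at hand for 8 of the 10 genes, and of their 14 windows one of Slc6a19 and 2 overlapping ones of Slc7a7 held AGAACA and another of Slc7a7 held GTTAAT. These matches are a description of the letters in these windows.

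Values below are log2(intensity + 1) of the deposited intensities, with 1 added before the logarithm, differences are on the same log2 scale, and adjusted p-values are Benjamini-Hochberg values of a limma fit over all 17740 genes. In bulk tissue fewer cells of a type and less RNA per cell cannot be told apart. The set was above the median probe set in 9 of 9 arrays for all genes but Slc36a2, which measured 2.98 to 3.33, below the array medians of 3.50 to 3.61 in 9 of 9 arrays. Whether Slc36a2 rose above background was not measured here. Markers of the early proximal tubule such as Slc34a1, the phosphate cotransporter, measured 12.12 to 12.27 over the 9 arrays, which places proximal tubule in every cortex sample.

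Before the results, 2 arrays stand apart in cell type markers. In db/db+TSF replicate 2 the summed intensity of 8 late proximal tubule markers was 944, against 3526 and 3586 in the other db/db+TSF arrays, 3260 to 3828 in db/db and 5584 to 6396 in db/m. It was the lowest of 9 arrays for 7 of the 8, Slc5a1 being the exception, and the highest of 9 for 4 of 8 early proximal tubule markers. In db/db replicate 3 the summed intensity of 6 neutrophil markers was 492, against 54.9 and 62.7 in the other db/db arrays, 59.1 to 68.1 in db/db+TSF and 57.5 to 62.1 in db/m. The sum of 6 proximal tubule injury markers was 409 there, against 201 and 191 in the other db/db arrays. It was 143 to 228 in db/db+TSF and 148 to 159 in db/m. Among the lean arrays, db/m replicate 3 was the lowest of 9 for 5 of 8 early proximal tubule markers. That lean array was also the lowest for 17.9% of all genes and the highest for 20%. The part of these arrays in the results was not tested. Values without an array are given beside many of the differences that it moved, not beside all of them.

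**Figure D1:**
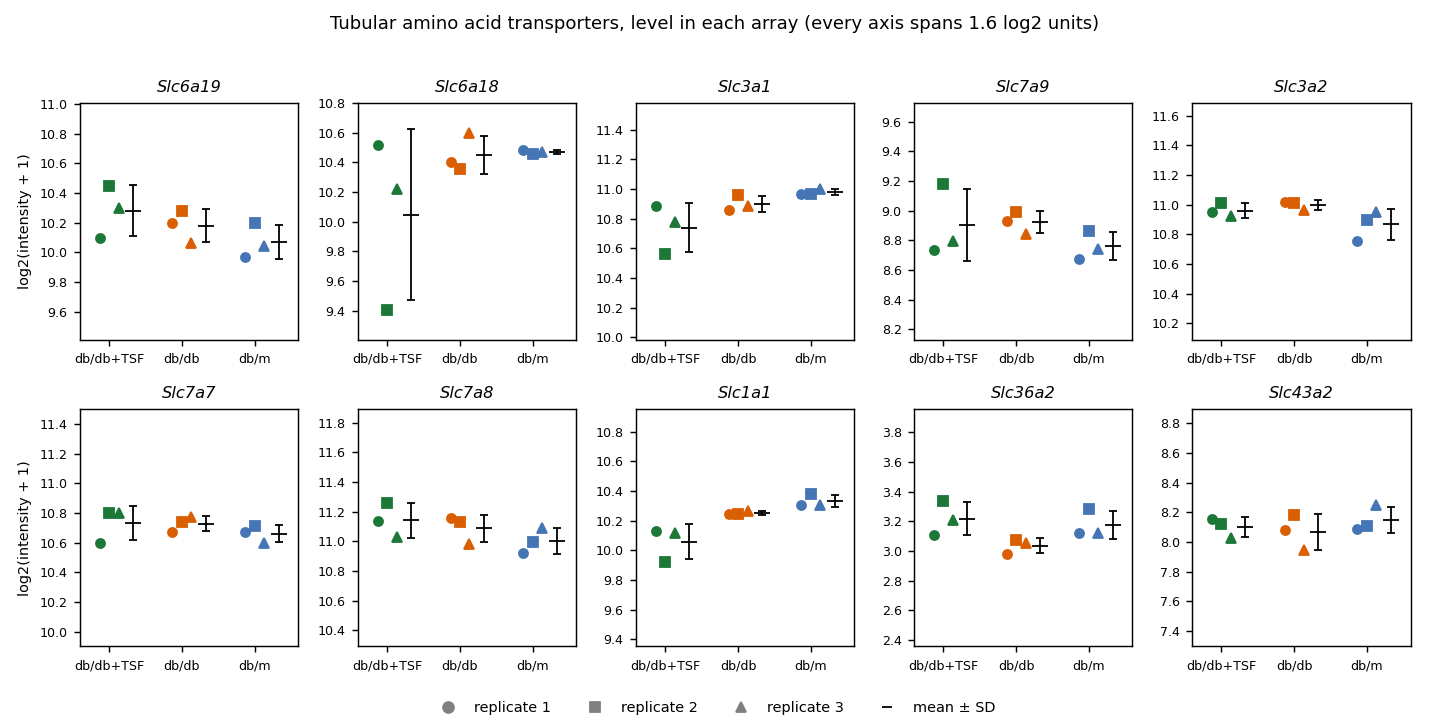
Level of each of the 10 transporters on the vertical axis as log2(intensity + 1), by group on the horizontal axis, with 1 symbol per array and the mean ± SD of 3 arrays as a black bar. Groups overlap for most genes, and Slc6a18 at 9.41 in db/db+TSF replicate 2 is the point farthest from its group.

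Among the luminal carriers, Slc6a19, the main sodium-driven carrier of neutral amino acids in the early proximal tubule, measured 10.10, 10.45 and 10.30 in db/db+TSF replicates 1 to 3, 10.20, 10.28 and 10.06 in db/db and 9.97, 10.20 and 10.04 in db/m. The groups overlapped in every comparison. The difference of db/db from db/m was 0.11 (SE 0.11, 95% interval -0.14 to 0.36, adjusted p = 0.709), and that of db/db+TSF from db/m was 0.21 (SE 0.11, adjusted p = 0.377). Without db/db+TSF replicate 2 the second was 0.13 (adjusted p = 0.718).

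Slc6a18 is a related neutral amino acid carrier, its annotated gene lies next to Slc6a19 with 0 annotated genes between them, and in mouse it serves the later proximal tubule. It measured 10.52, 9.41 and 10.22 in db/db+TSF, 10.40, 10.35 and 10.60 in db/db and 10.48, 10.46 and 10.47 in db/m. The db/m arrays lay close together (SD 0.011) and the db/db+TSF arrays far apart (SD 0.58). The difference of db/db+TSF from db/db was -0.40 (95% interval -0.88 to 0.08, adjusted p = 0.494), and without db/db+TSF replicate 2 it was -0.08 (adjusted p = 0.919). Db/db differed from db/m by -0.02 (95% interval -0.50 to 0.46, adjusted p = 0.976).

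Slc3a1 is the heavy subunit of the luminal cystine and dibasic amino acid exchanger. It measured 10.884, 10.562 and 10.775 in db/db+TSF, 10.858, 10.96 and 10.885 in db/db and 10.964, 10.969 and 11.001 in db/m, given to 3 decimals because the nearest arrays almost touch. Every db/db+TSF and db/db array lay below every db/m array, with db/db replicate 2 just below db/m replicate 1. The difference from db/m was -0.24 in db/db+TSF (95% interval -0.45 to -0.02, adjusted p = 0.241) and -0.08 in db/db (95% interval -0.29 to 0.14, adjusted p = 0.768). Without db/db+TSF replicate 2 the first was -0.15 (adjusted p = 0.596).

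Slc7a9, the light subunit that carries the substrate in this exchanger, measured 8.73, 9.18 and 8.80 in db/db+TSF, 8.93, 8.99 and 8.84 in db/db and 8.67, 8.86 and 8.74 in db/m. The groups overlapped, and the differences from db/m were 0.14 in db/db+TSF (adjusted p = 0.598) and 0.16 in db/db (95% interval -0.11 to 0.43, adjusted p = 0.596). The array lowest for Slc3a1, db/db+TSF replicate 2, was the highest for Slc7a9. Without that array the difference of db/db+TSF from db/m was 0.0053 (adjusted p = 0.993).

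Slc1a1 is the sodium-driven carrier of glutamate and aspartate in the brush border. It measured 10.13, 9.92 and 10.12 in db/db+TSF, 10.24, 10.24 and 10.27 in db/db and 10.31, 10.38 and 10.31 in db/m. The 3 groups did not overlap, with db/db+TSF lowest, db/db between and db/m highest. Taken in pairs, groups did not overlap for 18.6% to 22.1% of all genes, and the share with all 3 apart was not counted. The mean of Slc1a1 was 10.06 ± 0.12 in db/db+TSF, 10.25 ± 0.013 in db/db and 10.33 ± 0.042 in db/m (SD, n = 3 each). The difference of db/db+TSF from db/m was -0.27 (SE 0.09, 95% interval -0.47 to -0.08), the smallest unadjusted p of the set in that comparison, and did not pass over all genes (adjusted p = 0.135). With 16 added to the intensities in place of 1 it did (-0.27, adjusted p = 0.0479), and without db/db+TSF replicate 2 it was -0.21 (adjusted p = 0.399). Db/db+TSF differed from db/db by -0.19 (95% interval -0.39 to 0.0017, adjusted p = 0.428), or by -0.12 without that array (adjusted p = 0.808), and db/db from db/m by -0.08 (adjusted p = 0.726).

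Slc36a2, a proton-coupled carrier of glycine and proline, measured 3.11, 3.33 and 3.21 in db/db+TSF, 2.98, 3.07 and 3.05 in db/db and 3.12, 3.28 and 3.12 in db/m. All db/db arrays were below all arrays of both other groups. At this low signal the difference of db/db+TSF from db/db was 0.18 (adjusted p = 0.467) and that of db/db from db/m was -0.14 (adjusted p = 0.549).

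On the basolateral side, Slc3a2, the heavy subunit shared by several light subunits, measured 10.95, 11.01 and 10.92 in db/db+TSF, 11.02, 11.01 and 10.96 in db/db and 10.75, 10.90 and 10.95 in db/m. All db/db arrays were above all db/m arrays, the nearest of them narrowly, and the difference was 0.13 (95% interval -0.06 to 0.32, adjusted p = 0.55). Slc7a7, which joins Slc3a2 and releases dibasic amino acids, ranged from 10.60 to 10.80 over the 9 arrays, and db/db+TSF differed from db/db by 0.0053 (95% interval -0.19 to 0.20, adjusted p = 0.988). Slc7a8, the partner of Slc3a2 that exchanges neutral amino acids, ranged from 10.92 to 11.26, and db/db differed from db/m by 0.09 (95% interval -0.13 to 0.30, adjusted p = 0.738).

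Slc43a2, a uniporter of branched-chain and aromatic amino acids, ranged from 7.94 to 8.25. Db/db+TSF differed from db/db by 0.03 (95% interval -0.18 to 0.24, adjusted p = 0.921) and db/db from db/m by -0.08 (95% interval -0.29 to 0.13, adjusted p = 0.752). All 3 groups overlapped for Slc7a7, Slc7a8 and Slc43a2.

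**Figure D2:**
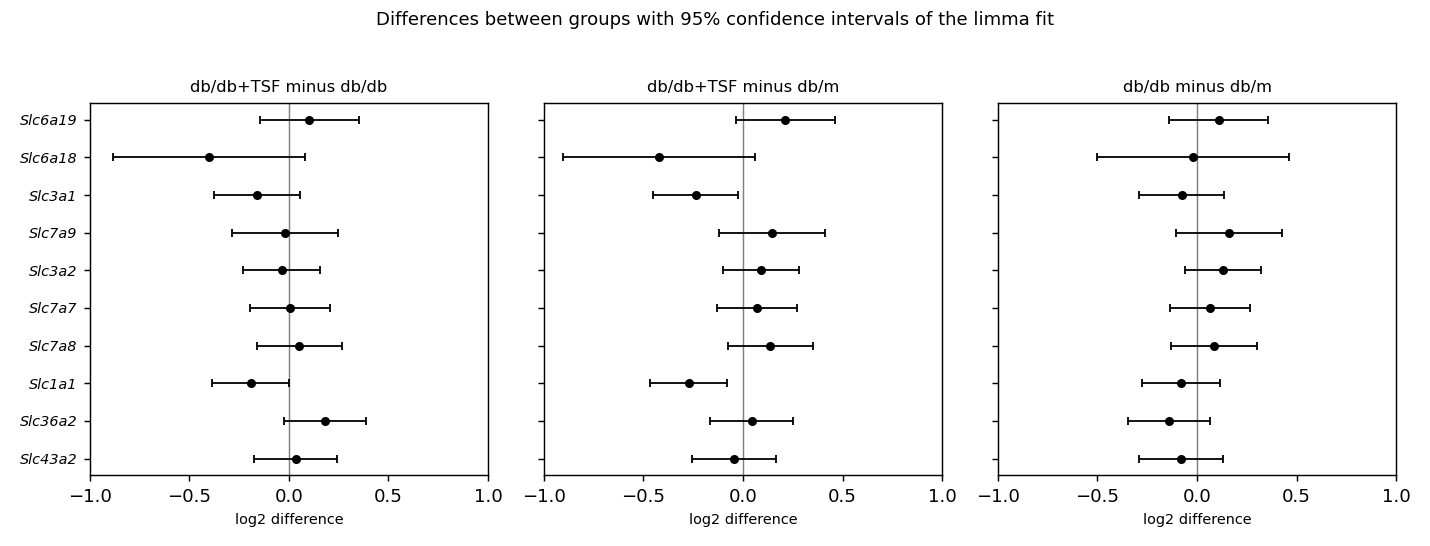
Differences between groups in log2 units on the horizontal axis for the 10 transporters, each with the 95% confidence interval of the limma fit, in 1 panel per comparison. In db/db minus db/m every interval holds 0, and in db/db+TSF minus db/m those of Slc3a1 and Slc1a1 lie below 0.

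For the whole set, 0 of 10 passed in db/db against db/m, where 1.05% of all genes did (0.592% higher and 0.462% lower), and 0 of 10 had an unadjusted p under 0.05, where 13.9% did. The differences ran from -0.14 (Slc36a2) to 0.16 (Slc7a9), with a median of 0.02 beside 0.01 over all genes. The 95% intervals, not adjusted for the number of genes, all lay between 1.42-fold lower and 1.38-fold higher, and those of the 9 genes other than Slc6a18 between 1.27-fold lower and 1.34-fold higher. The SE of Slc6a18 was 0.22, with the spread taken over all 9 arrays, and 0.11 without db/db+TSF replicate 2, an array of neither group compared. Groups did not overlap for 4 of 10, higher for Slc3a2 and lower for Slc3a1, Slc1a1 and Slc36a2, where 18.6% of all genes did not overlap (10.4% higher and 8.28% lower).

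When db/db+TSF was set against db/db, 0 of 10 passed and 0% of all genes did. The count with an unadjusted p under 0.05 was 0 of 10, where 11.7% of all genes had one. The median difference was -0.0062 beside -0.02 over all genes, and intervals lay between 1.84-fold lower and 1.31-fold higher, or between 1.31-fold lower and 1.31-fold higher for the 9 genes other than Slc6a18. Groups did not overlap for Slc1a1 (lower) and Slc36a2 (higher), 2 of 10, where 20.1% of all genes did not overlap (7.81% higher and 12.3% lower).

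Set against db/m, db/db+TSF had 0 of 10 pass where 3.13% of all genes did (1.22% higher and 1.92% lower), and 2 of 10, Slc1a1 and Slc3a1, had an unadjusted p under 0.05, where 17.2% did. The median was 0.06 beside -0.00018 over all genes, and the same 2 genes were those whose groups did not overlap, where 22.1% of all genes did not (9.76% higher and 12.4% lower). The comparisons share arrays and are not independent of each other. With both db/db groups averaged and set against db/m, 0 of 10 passed where 2.94% of all genes did (1.41% higher and 1.53% lower). Slc1a1 and Slc3a1 again were the 2 of 10 whose groups did not overlap, where 8.55% of all genes did not (4.23% higher and 4.32% lower), with differences of -0.18 (adjusted p = 0.277) and -0.16 (adjusted p = 0.392). Without db/db+TSF replicate 2, or without both arrays that stand apart, 0 of 10 passed in each of the 4 comparisons.

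Of 15917 genes searched, those closest to the pattern of Slc1a1, the member of smallest p with both db/db groups against db/m, were Parp3, Wdr13 and Zadh2. Their log2 values, centred per gene, lay 0.036, 0.044 and 0.044 from those of Slc1a1 (root mean square over 9 arrays), where Slc1a1 itself had an SD of 0.14.

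Db/db+TSF replicate 2 was the lowest of 9 arrays for 3 transporters, Slc6a18, Slc3a1 and Slc1a1, and the highest for 4, Slc6a19, Slc7a9, Slc7a8 and Slc36a2. Over all genes it was the lowest for 15.6% and the highest for 10.9%. Db/m replicate 1 was the lowest for 4 transporters, Slc6a19, Slc7a9, Slc3a2 and Slc7a8, and for 15.1% of all genes. Without db/m replicate 1 the difference of db/db from db/m was 0.058 for Slc6a19, 0.071 for Slc3a2 and 0.043 for Slc7a8. Db/m replicate 3 was the lowest for 17.9% of all genes and the highest for 20%. In the mouse proximal tubule Slc6a18 and Slc3a1 are known for strong expression toward the late segment and Slc6a19 and Slc7a9 for strong expression in the early segments. This grouping leaves out Slc1a1, Slc7a8 and Slc36a2, was made after the values were seen and was not tested.

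The late segment markers moved far more in db/db+TSF replicate 2. Slc7a12, a carrier-family gene of the late segment, measured 7.09 there, against 10.24 and 10.22 in the other db/db+TSF arrays, 9.78 to 10.12 in db/db and 8.95 to 9.50 in db/m. Acox2, a peroxisomal oxidase gene, measured 6.23 there, against 8.45 and 7.93 in the other db/db+TSF arrays. It was the lowest array for 0 of 8 early markers, and Slc5a2, the main glucose carrier of the early tubule, measured 11.15 there and 10.59 to 10.96 in the other arrays. The late markers were not uniform between db/db and db/m. Slc22a7 and Cyp7b1, an anion transporter and a steroid hydroxylase, fell, where 0.462% of all genes did, and 6 of 8 did not pass. Against db/m, 4 of 8 fell in db/db+TSF, where 1.92% of all genes fell. With both db/db groups against db/m, 3 of 8 fell, where 1.53% did.

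**Figure D3:**
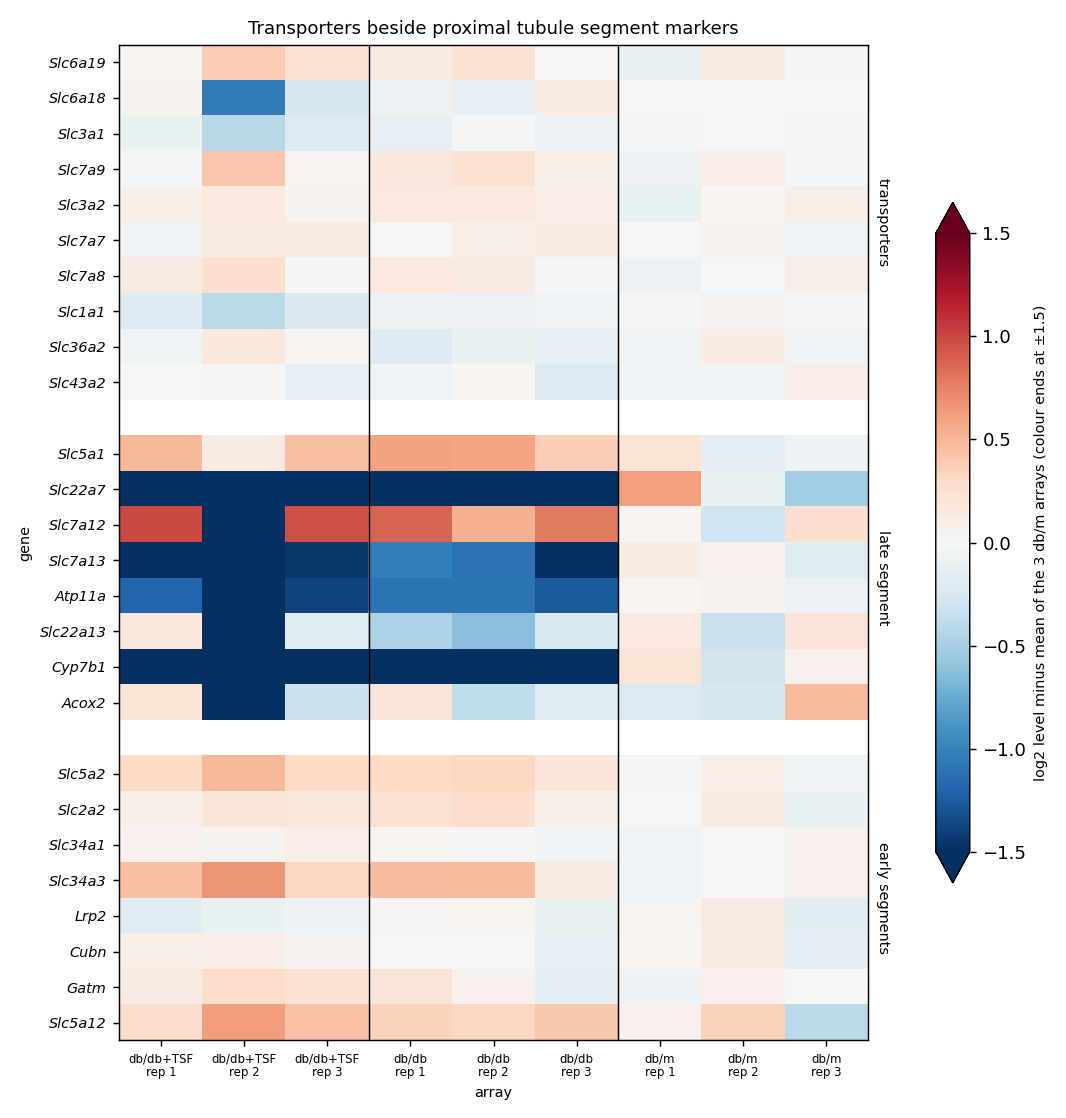
Level of each gene in each array, in columns, minus the mean of the 3 db/m arrays, in log2 units as colour, for the 10 transporters, 8 late segment markers and 8 early segment markers of the proximal tubule. The column of db/db+TSF replicate 2 is dark blue for all late segment markers but Slc5a1, and lower for Slc6a18, Slc3a1 and Slc1a1.

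Slc7a13, a second light subunit of Slc3a1 that carries cystine and acidic amino acids in the late proximal tubule, is the partner of the set that passed the test. It measured 8.54, 6.27 and 9.29 in db/db+TSF, 9.71, 9.63 and 8.75 in db/db and 10.85, 10.80 and 10.56 in db/m. Every array of both db/db groups was below every db/m array. It fell in db/db+TSF against db/m by 2.70 (SE 0.58, adjusted p = 0.0328), and the difference of db/db from db/m was -1.37 (SE 0.58, adjusted p = 0.326). Its lowest value was in db/db+TSF replicate 2, the array low in late segment markers, of which Slc7a13 is one. Without that array the difference from db/m was -1.82 in db/db+TSF and -1.37 in db/db, and both then passed (adjusted p = 0.0148 for db/db+TSF and 0.0332 for db/db). The call in db/db+TSF was lost without db/m replicate 1 (adjusted p = 0.101), 2 (0.0812) or 3 (0.0799), without db/db+TSF replicate 1 (0.051), with a variance trend and robust settings (0.134) and when only the 2 groups were fitted (0.0582). Fitting only the 2 groups compared let the difference of db/db from db/m pass (adjusted p = 0.034). With both db/db groups against db/m the difference was -2.04 (adjusted p = 0.0588), and it passed without db/db+TSF replicate 2 (-1.60, adjusted p = 0.00627), without db/db+TSF replicate 3 (-2.35, adjusted p = 0.0227) and without both arrays that stand apart (-1.44, adjusted p = 0.0024).

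Cltrn encodes collectrin, which carries Slc6a19 and Slc6a18 to the brush border. It measured 10.87, 11.01 and 11.02 in db/db+TSF, 11.04, 10.88 and 10.74 in db/db and 10.89, 10.98 and 10.68 in db/m. The groups overlapped, and db/db differed from db/m by 0.04 (95% interval -0.21 to 0.28, adjusted p = 0.902).

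Of 34 other amino acid carriers of the plasma membrane listed, 33 had a probe set and 31 were tested. In db/db against db/m 0 passed, 21 (67.7%) lay above 0 and the median was 0.09, beside 52.2% and 0.01 over all genes. Between db/db+TSF and db/db 0 passed, 12 (38.7%) lay above 0 and the median was -0.02, beside 43.9% and -0.02 over all genes. Against db/m, 1 of 31 rose and 0 fell in db/db+TSF, where 1.22% of all genes rose and 1.92% fell. That gene, Slc1a5, an exchanger of glutamine and other neutral amino acids, measured 7.45, 7.20 and 7.32 in db/db+TSF, 7.09, 7.20 and 7.10 in db/db and 6.54, 6.86 and 6.72 in db/m. It was higher in all 6 db/db and db/db+TSF arrays than in all db/m arrays. It rose by 0.62 in db/db+TSF against db/m (SE 0.11, adjusted p = 0.0125) and by 0.52 with both db/db groups against db/m (adjusted p = 0.0131), and the difference of db/db from db/m was 0.42 (adjusted p = 0.0936).

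A second, dimmer probe set of Slc1a5 differed by 0.19 in db/db+TSF against db/m, and with the mean of its probe sets neither call passed (adjusted p = 0.0678 for db/db+TSF and 0.0652 for both groups). Leaving out db/m replicate 1 also ended both calls (adjusted p = 0.0505 and 0.0668), as leaving out db/db+TSF replicate 3 did for db/db+TSF (0.052).

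The carriers of smallest p besides Slc1a5 did not pass. Slc6a12, the osmotically regulated betaine and GABA carrier, measured 4.80, 4.24 and 4.79 in db/db+TSF, 5.39, 5.54 and 6.47 in db/db and 4.79, 4.93 and 4.07 in db/m. All db/db arrays were above all arrays of both other groups, with the highest in db/db replicate 3. Over all genes, db/db lay above db/m without overlap for 10.4%, and db/db+TSF below db/db for 12.3%. Slc6a12 differed by 1.20 in db/db against db/m (adjusted p = 0.0842) and by -1.19 in db/db+TSF against db/db (adjusted p = 0.252), differences that share the db/db arrays. Slc7a6, a basolateral partner of Slc3a2, differed by 0.53 (adjusted p = 0.107) and -0.40 (adjusted p = 0.331) in these comparisons, and Slc38a1, a sodium-driven glutamine carrier, by -0.37 in db/db+TSF against db/db (adjusted p = 0.347). Without both arrays that stand apart the differences of db/db+TSF from db/db were -0.67 for Slc6a12, -0.19 for Slc7a6 and -0.15 for Slc38a1.

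Peptides are taken up beside amino acids by Slc15a1 and Slc15a2. Slc15a1, the low-affinity peptide transporter of the early proximal tubule, was dim but measured 4.94, 4.96 and 4.73 in db/db+TSF, 4.44, 4.72 and 4.17 in db/db and 3.89, 3.96 and 4.11 in db/m. The 3 groups did not overlap, where single pairs of groups did not for 18.6% to 22.1% of all genes. It rose by 0.89 in db/db+TSF against db/m (SE 0.14, adjusted p = 0.00686), a call that held in every fit with 1 array left out, and by 0.67 with both db/db groups against db/m (adjusted p = 0.0116), a call lost without db/m replicate 1 (0.0622). The differences of db/db from db/m and of db/db+TSF from db/db were 0.46 (adjusted p = 0.151) and 0.44 (adjusted p = 0.289), the second being 0.26 without both arrays that stand apart. Slc15a2, the high-affinity peptide transporter of the later tubule, differed by -0.20 in db/db against db/m (adjusted p = 0.588), or by -0.098 without db/m replicate 3, and was lowest in db/db+TSF replicate 2, at 7.64. Slc15a3 and Slc15a4, the lysosomal peptide and histidine carriers, did not pass, with -0.23 for Slc15a3 in db/db against db/m (adjusted p = 0.406) and -0.22 for Slc15a4 in db/db+TSF against db/db (adjusted p = 0.453).

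Cells short of amino acids raise carriers such as Slc7a5 and Slc7a11 and enzymes such as Asns through the factor Atf4. Of 16 such genes listed 14 were tested, and 0 passed in any of the 4 comparisons. Slc7a11 lay under the filter and was not tested, and both Slc7a5 and Slc7a11 are also in the list of other carriers above. The count above 0 was 5 of 14 in db/db against db/m (35.7%, median -0.01), beside 52.2% and 0.01 over all genes, and 10 of 14 in db/db+TSF against db/db (71.4%, median 0.08), beside 43.9% and -0.02 over all genes. The smallest p in db/db against db/m was that of Ddit3, a stress-induced transcription factor (0.39, adjusted p = 0.121), followed by Slc7a5 (0.54, adjusted p = 0.314) and Vldlr (0.23, adjusted p = 0.472). Slc7a5 was 0.28 without db/db replicate 3 (adjusted p = 0.619), and Vldlr was 0.058 without db/m replicate 3 (adjusted p = 0.821). Between db/db+TSF and db/db the genes of smallest p were Cebpb (0.37, adjusted p = 0.407), Vldlr (-0.28, adjusted p = 0.428) and Chac1 (0.22, adjusted p = 0.444).

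Among proximal tubule transcription factors 3 were tested. Hnf4a, whose motif stands before Slc3a1 above, measured 10.60 to 10.83 over the 9 arrays and differed by -0.10 in db/db against db/m (adjusted p = 0.655) and by -0.05 in db/db+TSF against db/db (adjusted p = 0.876). Against db/m the difference in db/db+TSF was -0.15 (adjusted p = 0.445), with all db/db+TSF arrays below all db/m arrays, as for 12.4% of all genes. Without db/db replicate 3 the difference of db/db from db/m was -0.063. Maf differed by 0.14 in db/db against db/m (adjusted p = 0.686) and by 0.0048 in db/db+TSF against db/db (adjusted p = 0.993). In db/db+TSF against db/m the difference of Maf was 0.15. Ppara, a nuclear receptor of fatty acid oxidation, measured 8.24, 8.55 and 8.47 in db/db+TSF, 8.29, 7.98 and 7.71 in db/db and 7.65, 7.82 and 7.65 in db/m. It rose in db/db+TSF against db/m by 0.72 (SE 0.14, adjusted p = 0.024), a call lost when any of db/m replicate 1 (0.0806), db/m replicate 3 (0.0665), db/db+TSF replicate 2 (0.0916) or db/db+TSF replicate 3 (0.0897) was left out, and the differences of db/db from db/m and db/db+TSF from db/db were 0.29 (adjusted p = 0.397) and 0.43 (adjusted p = 0.317). The first was 0.14 without db/db replicate 1 (adjusted p = 0.737), and the second was 0.22 without both arrays that stand apart (adjusted p = 0.762). With both db/db groups against db/m Ppara differed by 0.50 (adjusted p = 0.0563), which passed without db/db replicate 3 (0.0244), without both arrays that stand apart (0.042), with a variance trend and robust settings (0.0348) and with a filter at the 50th percentile (0.0499).

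**Figure D4:**
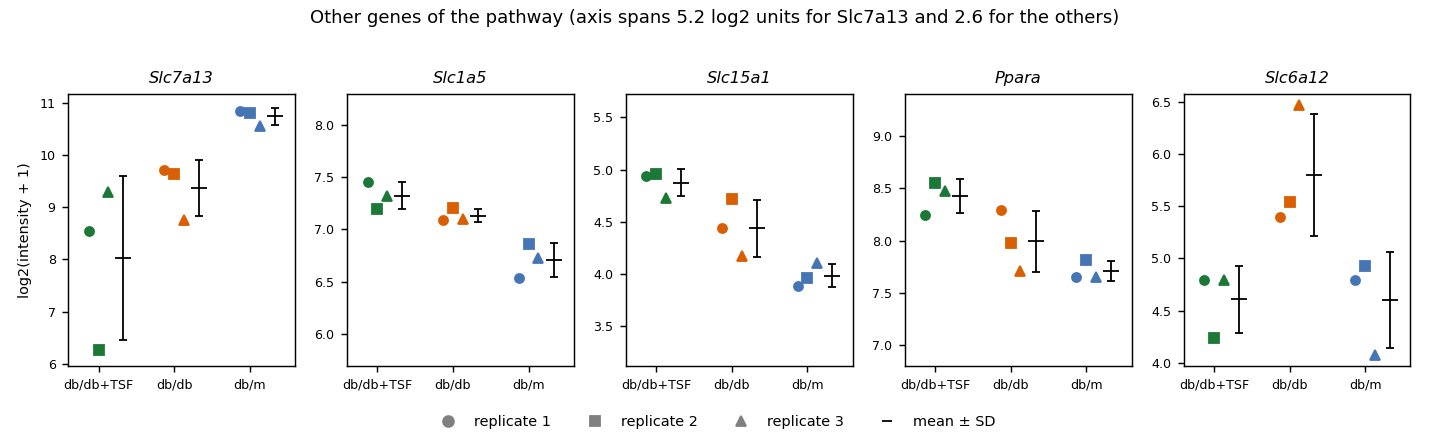
Level of Slc7a13, Slc1a5, Slc15a1, Ppara and Slc6a12 as log2(intensity + 1) by group, with 1 symbol per array and the mean ± SD of 3 arrays as a black bar. Slc7a13 is highest and Slc1a5 and Slc15a1 are lowest in db/m, and Slc6a12 is highest in db/db.

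Markers of other cell types were read beside these results. Summed over 8 distal tubule and loop of Henle markers, intensities were 9195 to 10173 in db/db+TSF and 9055 to 10127 in db/db, against 7495 to 7863 in db/m. Of these markers 2 of 8 rose in db/db against db/m, where 0.592% of all genes rose. In db/db+TSF against db/m 3 of 8 rose, where 1.22% did, and with both db/db groups against db/m 3 of 8, where 1.41% did. Summed over 8 early proximal tubule markers, intensities were 16593 to 17933 in db/db+TSF, 15665 to 16932 in db/db and 14618 to 16491 in db/m, with 0 of 8 past the threshold in each of the 4 comparisons. Summed over 6 leukocyte markers they were 175 to 212 in db/db+TSF, 220 to 322 in db/db and 265 to 312 in db/m. Of these 6, Cd68, Tyrobp and Cd3e fell in db/db+TSF against db/m, where 1.92% of all genes fell. Cd3e, a T cell receptor subunit, also fell in db/db against db/m (-0.78, adjusted p = 0.0239), where 0.462% of all genes fell. Of 6 injury markers 1, Sprr1a, rose in db/db against db/m (1.64, adjusted p = 0.0093), where 0.592% of all genes rose. Sprr1a was at 5.26, 4.39 and 4.36 in db/db+TSF, 5.77, 5.64 and 5.91 in db/db and 3.95, 4.58 and 3.86 in db/m. The part of these markers in the results was not tested.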

How the data were processed

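The deposited values are intensity values on a linear scale, 1 per probe set and array. Per the submitters' processing notes, Affymetrix Expression Console and Transcriptome Analysis Console were used, while how background, normalization and probe summary were set is not stated in the labels or headers. Array medians were 10.3 to 11.2 intensity units, and for arrays their number limits the precision. P-values measure the spread between these arrays. The labels call them biological replicates.

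Gene names came from GEO's platform annotation (23521 of 41345 had 1 symbol), and the brightest per gene stood for it. Values were analysed as log2(value + 1), so fold changes of dim genes are understated. Genes under the 30th percentile of probe sets (2.65) were left out, before a fit of 3 group means to 9 arrays with limma 3.58.1 in R 4.3.3 and eBayes. Benjamini-Hochberg adjustment ran over all 17740 genes, with a threshold of 0.05.

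The transporters and the 15 lists (127 of 135 entries matched) were chosen with earlier results of these data known. Named were all transporters and partners, genes of the other pathway lists past the threshold, and otherwise up to 3 of smallest p per list and comparison. The most similar genes to the member of smallest p were named by root mean square distance. Alternatives covered probe set choice, filter, scaling, pseudocount, variance model, array weights, arrays in the fit, replicate block, threshold and leaving out arrays.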

Additional observations from a re-analysis of the deposited data

Results flagged for a closer look

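Over the 6 arrays of both db/db groups, 10 transporters and 18 other named genes were examined for an array far from the rest, by the gap to its neighbour as a share of the range, against Dixon's 95% critical value. Chance alone passes it in about 1 of 20 such groups, and 2 of 28 genes did, both through db/db+TSF replicate 2. For Slc6a18 the gap was 0.685 of the range, with 9.41 in that array and 10.22 in the next. For Slc7a13 it was 0.659, with 6.27 in that array and 8.54 in the next.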

How the results depend on the processing

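In each of the 4 comparisons 0 of 10 transporters passed under all alternatives, except that 1, Slc1a1, passed in db/db+TSF against db/m with 16 added to the intensities. Over all genes, db/db against db/m called 187, 72 to 194 with 1 array left out, 442 at a threshold of 0.1 and 114 without both arrays that stand apart, a setting chosen after seeing the data. The counts for db/db+TSF against db/m were 556, 213 to 563, 1012 and 271, and for both db/db groups against db/m 521, 231 to 422, 953 and 350. Db/db+TSF against db/db called 0 throughout. For db/db against db/m the count moved by over 1.5 times without db/m replicate 1 (86), 2 (122) or 3 (109), db/db replicate 1 (72), 2 (121) or 3 (82) or db/db+TSF replicate 3 (116). It did so for db/db+TSF against db/m without db/m replicate 1 (220) or 2 (370) or db/db+TSF replicate 2 (224) or 3 (213), and for both groups without db/m replicate 1 (231). With the replicate number as a block the counts were 137, 434, 407 and 0 in db/db against db/m, db/db+TSF against db/m, both groups against db/m and db/db+TSF against db/db, and no transporter passed. Only 3 of 9 arrays correlated best with an array of their own number, and 2 of 9 same-numbered pairs correlated above 0.1, so the numbers were not taken to pair the arrays.

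Differences near 0 changed sign under some settings, with no call on either side. In db/db+TSF against db/db median scaling gave -0.054 for Slc7a7, -0.0062 for Slc7a8, -0.026 for Slc43a2 and -0.054 for Maf, quantile normalization -0.014 for Slc7a7, and the mean of probe sets and array weights -0.035 and -0.038 for Maf. Without both arrays that stand apart it was -0.040 for Slc6a19, -0.0049 for Slc7a7, -0.059 for Slc7a8, -0.040 for Slc43a2, -0.020 for Cltrn and -0.22 for Maf. Slc36a2 in db/db+TSF against db/m was -0.0020 with median scaling and -0.015 without those arrays.

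With 1 array left out, the range in db/db+TSF against db/db was -0.029 to 0.072 for Slc7a7, -0.0066 to 0.11 for Slc7a8, -0.16 to 0.068 for Slc7a9, -0.029 to 0.090 for Slc43a2, -0.082 to 0.0086 for Hnf4a and -0.13 to 0.078 for Maf. In db/db+TSF against db/m it was -0.015 to 0.098 for Slc36a2 and -0.076 to 0.0047 for Slc43a2. In db/db against db/m it was -0.094 to 0.028 for Slc6a18 and -0.045 to 0.11 for Cltrn, and with both groups against db/m -0.077 to 0.0065 for Slc36a2 and -0.0062 to 0.14 for Cltrn. The cause of these changes was not tested. Dim genes such as Slc36a2 and Slc15a1 are limited by signal over background.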
